A study of Mus musculus with 35 samples.

Results

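Penk, Gpr15, Itgad, Ikzf2, Tcrg-C1, Zdhhc13 and Fancl are 7 of the 38924 genes counted in RNA of sorted mouse CD8 T cells. They were chosen by their counts, as present in unstimulated spleen cells of aged males and very low or absent in unstimulated brain cells of aged males, and no numeric limit went with that choice. The values behind the choice are therefore given as a description. Where the same 5 unstimulated spleen libraries, in which presence was required, are an arm of a later comparison, its p-values are no independent test. That holds for female brain and young male brain against spleen and for stimulation in spleen. Stimulated brain against stimulated spleen used none of those libraries, but 46.7% of all 9135 genes tested were lower in brain there. The 4 members called in it had no brain counts and passed the filter on low counts through spleen alone. A call among them could thus only be lower. A description as missing in brain held in most brain libraries for Gpr15 and Itgad, each of which had counts in 1 of 25. Of those 25, 6 are the unstimulated aged male libraries whose low counts chose the genes, so their zeros were set in advance. Stimulated brain libraries detected the fewest genes, so a 0 there shows less. In the remaining groups, unstimulated female and young male brain, Gpr15 had counts in 0 of 5 and 1 of 5 libraries, and Itgad in 1 of 5 and 0 of 5. The description held less for the other 5 genes, which had counts in 4 to 19 brain libraries. Ikzf2, Tcrg-C1, Zdhhc13 and Fancl reached levels above every unstimulated spleen library in 2 to 5 of them.

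All libraries came from C57BL/6 mice without a labelled genetic change, and all cells were sorted by a surface phenotype of antigen-experienced T cells that included CD3e+CD8+CD44hi. Stimulated cells were kept for 2 h with PMA, a phorbol ester, plus ionomycin, a calcium ionophore. The brain groups were aged female stimulated (n = 5), aged female unstimulated (n = 5), aged male stimulated (n = 4), aged male unstimulated (n = 6) and young male unstimulated (n = 5). The spleen groups were aged male stimulated (n = 5) and aged male unstimulated (n = 5). The labels give age only as young or aged, and they name no animal or pool for a library. A p-value here thus rests on the spread between libraries, and that spread could be technical.

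The 7 genes work in different places of a T cell. Penk encodes proenkephalin, the precursor of the enkephalins, opioid peptides that neurons and immune cells can secrete. Gpr15 is a G protein-coupled receptor known for steering T cells to the large intestine and skin. Itgad encodes CD11d, an integrin alpha chain that pairs with the beta2 chain Itgb2 and binds adhesion molecules such as Icam3 in human cells and Vcam1. Tcrg-C1 is a constant gene of the T cell receptor gamma locus, whose protein chain belongs to the receptor of gamma delta T cells. Ikzf2 encodes Helios, an Ikaros family zinc finger transcription factor known from regulatory T cells and from some CD8 T cells. Zdhhc13 belongs to the zDHHC family of palmitoyltransferases, which attach fatty acids to proteins. Fancl is the E3 ubiquitin ligase subunit of the Fanconi anaemia core complex, which acts on DNA interstrand crosslinks.

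Library totals ran from 1.16 to 24.97 M counts. Brain libraries detected fewer genes than spleen libraries, and stimulated brain libraries detected the fewest. Of 7753 genes with a mean of at least 5 CPM (counts divided by the library total in M, scaled by TMM over all 35 libraries) in unstimulated spleen, 42.7 to 61.4% had a count in stimulated female brain libraries. The range was 66.9 to 98.5% in unstimulated female brain, 21.6 to 44.3% in stimulated male brain, 89.8 to 96.0% in unstimulated aged male brain and 92.0 to 93.9% in unstimulated young male brain. It was 98.8 to 99.7% in stimulated spleen and 99.7 to 99.8% in unstimulated spleen. Unstimulated female brain replicate 13 stood apart, with 12706 genes detected, more than any other brain library. Mitochondrial genes took 38.5 to 69.7% of counts in stimulated brain libraries and 8.28 to 20.8% elsewhere. Cd8a, which encodes the alpha chain of CD8, had counts in all 35 libraries, at 2.84 to 1008 CPM. Titles were written with hyphens for all brain libraries except stimulated female replicates 26 and 27, and without hyphens for those 2 and for spleen. Tissue and title style can be told apart only there, and the female comparison with spleen also differs in sex. With bulk RNA, fewer cells of a type and less RNA per cell cannot be told apart.

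**Figure D1:**
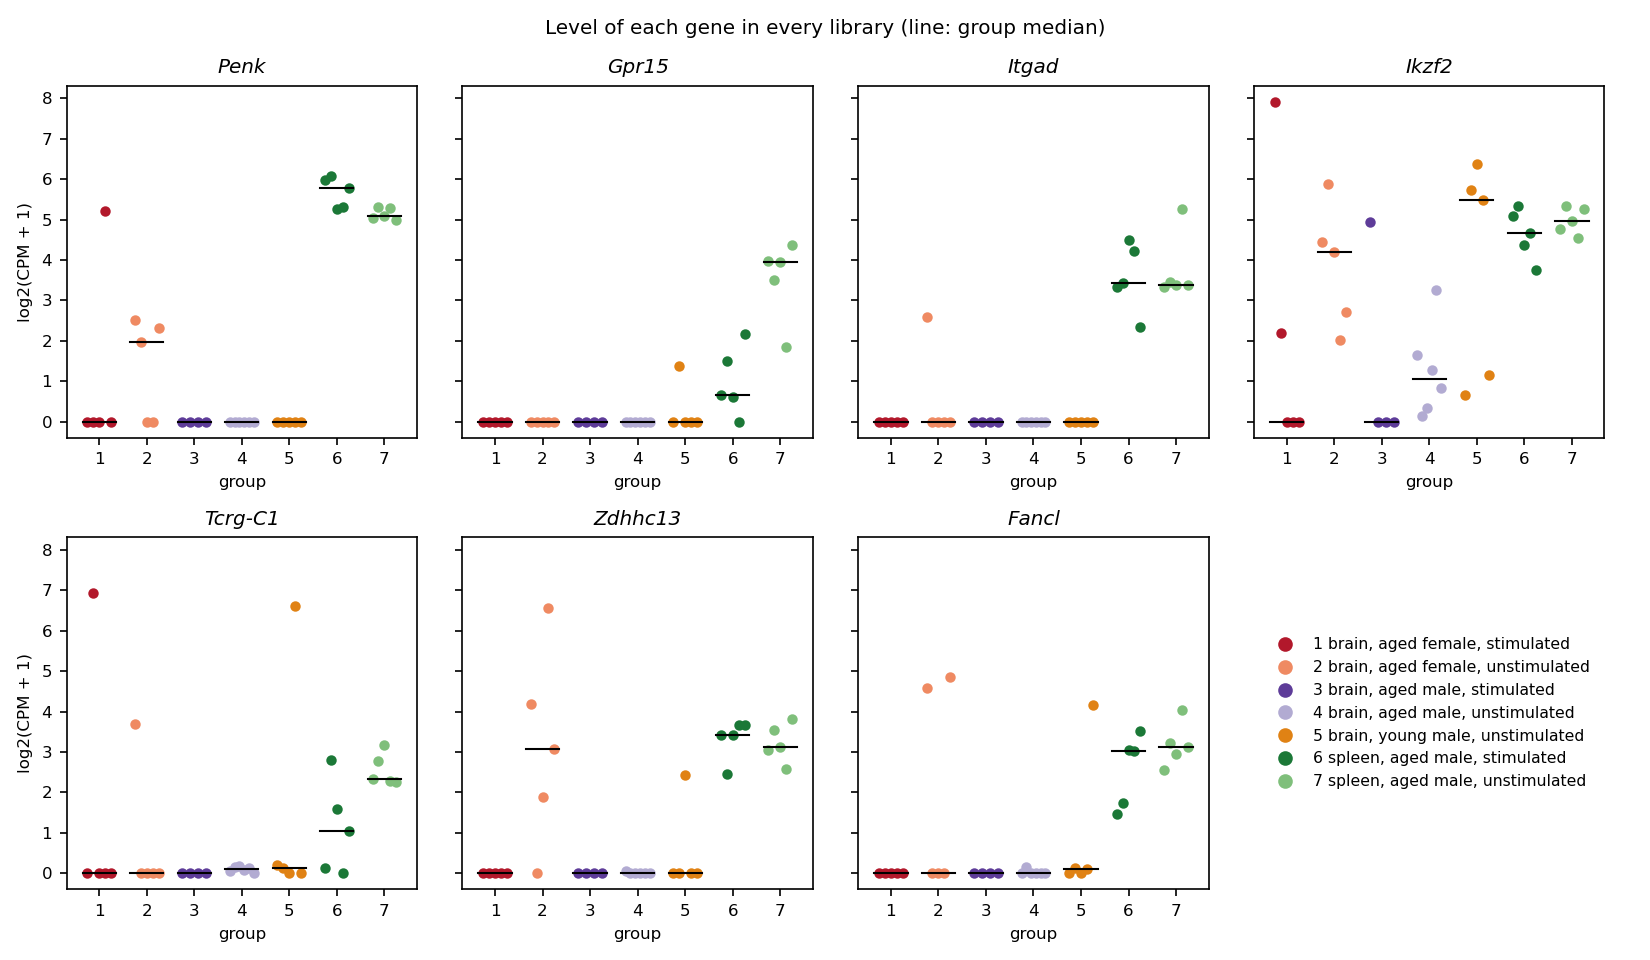
Levels of the 7 genes as log2(CPM + 1) on the vertical axis, with the 7 groups on the horizontal axis; each point is 1 library and each line a group median. Points at 0 are libraries without a count. Gpr15 and Itgad leave 0 in 1 brain library each, whereas Ikzf2 runs from 0 to 240 CPM across brain libraries.

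Penk, on chromosome 4 at 4133531 to 4138819 (minus strand; all positions are GRCm38), had counts in 4 of 25 brain libraries. Its counts were 0, 0, 0, 102 and 0 in stimulated female brain and 65, 59, 0, 0 and 68 in unstimulated female brain. All 4 stimulated male, all 6 unstimulated aged male and all 5 young male brain libraries had 0 counts. Stimulated spleen held 751, 697, 350, 298 and 559 counts and unstimulated spleen 431, 508, 464, 854 and 449. Every spleen library was far above 0, and the one brain library that reached the spleen range was stimulated female replicate 26. On the CPM scale that library was at 36.4 CPM, inside the unstimulated spleen range of 30.8 to 38.5 CPM. Its title is written without hyphens, as those of spleen are, while stimulated female replicate 27, titled the same way, had 0 counts of all 7 genes. The 3 unstimulated female libraries with counts lay between 2.95 and 4.72 CPM, below every spleen library.

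Gpr15, on chromosome 16 at 58717433 to 58719070 (minus strand), had 0 counts in 24 of 25 brain libraries and 18 counts in young male brain replicate 3. Stimulated spleen libraries had 7, 19, 5, 0 and 36 counts, and unstimulated spleen libraries had 196, 137, 205, 59 and 285. The stimulated and unstimulated spleen counts did not overlap, but on the CPM scale they did, as stimulated replicate 40 was at 3.51 CPM and unstimulated replicate 33 at 2.62 CPM. The brain library with counts was at 1.60 CPM, inside the stimulated spleen range of 0 to 3.51 CPM and below the unstimulated spleen range of 2.62 to 19.6 CPM.

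Itgad, on chromosome 7 at 128154376 to 128223816 (plus strand), had 69 counts in unstimulated female brain replicate 13 and 0 in the other 24 brain libraries. That library was also the brain library with the highest share of spleen genes detected, 98.5%. Stimulated spleen had 110, 102, 202, 137 and 42 counts, and unstimulated spleen had 121, 132, 132, 839 and 137. Of the unstimulated spleen libraries, 4 lay between 9.04 and 9.99 CPM, while replicate 33 was at 37.3 CPM. The summed CPM of 7 red pulp macrophage markers in that replicate was 52.2, between the 28.3 and 91.7 of the other spleen libraries of its group. The summed CPM of 6 B cell markers there was 501.7, the highest of the group, against 154.4 to 384.0 in the others. The part of other cell types in the Itgad value was not tested.

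Tcrg-C1, on chromosome 13 at 19214103 to 19217024 (plus strand), has near-identical copies in the same locus, so its value depends on how reads were shared between them. Its 515 coding bases were 97.4% identical to Tcrg-C2 over 500 aligned bases and 96.8% identical to Tcrg-C3 over 443. Of the 50-base stretches in its transcripts, 34.2% also occurred in other genes, and 22.2% occurred in Tcrg-C3. The stretch below of 60 coding bases is shown because it lets a reader see how few bases separate the copies; it covers chr13:19214190-19214249 (plus strand) in Tcrg-C1, chr13:19307405-19307464 (minus strand) in Tcrg-C2 and chr13:19260972-19261031 (plus strand) in Tcrg-C3, from GRCm38 with GENCODE M21. The stretch was picked from the first coding exon for the most differences between Tcrg-C1 and Tcrg-C2, so it is not a typical one. Capitals mark bases that differ between Tcrg-C1 and a copy, 3 for Tcrg-C2 and 4 for Tcrg-C3. In the Tcrg-C1 line they mark those that differ from Tcrg-C2.
Tcrg-C1: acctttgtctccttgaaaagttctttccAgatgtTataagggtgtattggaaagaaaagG
Tcrg-C2: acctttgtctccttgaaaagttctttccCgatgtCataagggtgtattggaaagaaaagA
Tcrg-C3: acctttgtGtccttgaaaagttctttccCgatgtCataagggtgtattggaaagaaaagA

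Counts of Tcrg-C1 were 0, 371, 0, 0 and 0 in stimulated female brain and 164, 0, 0, 0 and 0 in unstimulated female brain. They were 0 in all 4 stimulated male libraries, 0 to 2 (median 1) in unstimulated aged male brain, and 2, 1, 0, 1341 and 0 in young male brain. Stimulated spleen had 1, 62, 19, 0 and 11 counts, and unstimulated spleen had 54, 78, 113, 86 and 55. Thus 3 brain libraries, at 11.9, 96.3 and 122 CPM, stood above the unstimulated spleen range of 3.78 to 8.02 CPM, and the other 22 lay below it. The copy Tcrg-C2 behaved otherwise: its counts were 1677 to 4901 in unstimulated female brain, 833 to 11065 (median 4262) in unstimulated aged male brain and 23 to 3216 in young male brain, against 1055 to 4555 in unstimulated spleen. Tcrg-C2 was at 0 in all 4 stimulated male brain libraries and at 0 to 841 in stimulated female brain, against 207 to 1536 in stimulated spleen.

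Ikzf2, on chromosome 1 at 69531214 to 69687245 (minus strand), was the one member with counts in every unstimulated brain library. Its counts were 929, 11, 0, 0 and 0 in stimulated female brain and 285, 1166, 141, 45 and 94 in unstimulated female brain. They were 163, 0, 0 and 0 in stimulated male brain, 1 to 176 (median 23) in unstimulated aged male brain, and 8, 583, 995, 614 and 17 in young male brain. Stimulated spleen had 397, 411, 184, 190 and 127 counts, and unstimulated spleen had 354, 517, 426, 507 and 545. Spleen libraries were even and brain libraries were not: young male brain split into 3 libraries at 44.1 to 82.0 CPM and 2 at 0.569 and 1.24 CPM. In unstimulated spleen the range was 22.5 to 39.1 CPM, and 5 brain libraries lay above it. The 6 CD4 and regulatory T cell markers summed to 37.7 to 212.7 CPM in unstimulated female brain and 25.2 to 299.7 CPM in young male brain, against 75.1 to 107.2 CPM in unstimulated spleen. Of that list Foxp3, which defines regulatory T cells, was at 0 in all libraries of both brain groups, against 5.07 to 16.4 CPM in unstimulated spleen. Il2ra and Zbtb7b had counts in all libraries of both brain groups, and Cd4 in 2 of 5 female and 3 of 5 young male libraries. The part of such cells in the Ikzf2 values was not tested.

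Zdhhc13, on chromosome 7 at 48789003 to 48827440 (plus strand), had 0 counts in all 9 stimulated brain libraries. In unstimulated female brain it had 238, 0, 22, 1375 and 126 counts. It had 1, 0, 0, 0, 0 and 0 counts in unstimulated aged male brain and 0, 0, 53, 0 and 0 in young male brain. Spleen values were close together, with 118, 47, 91, 91 and 119 counts when stimulated and 97, 142, 109, 111 and 191 when unstimulated. Unstimulated female brain spanned both sides of spleen: replicate 16 was at 93.8 CPM and replicate 14 at 0, against 4.93 to 13.1 CPM in unstimulated spleen. None of the 50-base stretches in the GENCODE M21 transcripts of Zdhhc13 occurred in another gene.

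Fancl, on chromosome 11 at 26386135 to 26471876 (plus strand), also had 0 counts in all 9 stimulated brain libraries. Its counts were 315, 0, 0, 0 and 468 in unstimulated female brain, 0, 1, 0, 0, 0 and 0 in unstimulated aged male brain, and 0, 1, 0, 1 and 231 in young male brain. Stimulated spleen had 21, 24, 69, 55 and 108 counts, and unstimulated spleen had 65, 109, 95, 344 and 113. The 3 brain libraries with more than 1 count, at 16.8, 22.9 and 27.7 CPM, were all above the unstimulated spleen maximum of 15.3 CPM. Of its 50-base stretches, 11.4% lie in the gene Vrk2 on the opposite strand, and strand handling by the authors is not given in the sources used here. The same limit touches Penk, where 8.60% overlap A830012C17Rik, and Gpr15, where 9.76% overlap Cpox. In Itgad, 19.7% of stretches occur in other genes on either strand, with 8.43% shared with its neighbour Itgax.

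Per unit of length, on the TPM scale deposited by the authors, Penk was the most abundant of the 7 in unstimulated spleen at 45.9 ± 10.2 TPM (SD, n = 5). Tcrg-C1 followed at 17.3 ± 6.13 TPM and Gpr15 at 13.2 ± 6.66 TPM. Fancl stood at 9.26 ± 3.62 TPM, Zdhhc13 at 5.19 ± 2.42 TPM, Itgad at 4.89 ± 4.002 TPM and Ikzf2 at 4.04 ± 0.850 TPM. The libraries of Penk, at 35.3 to 58.1 TPM, did not overlap those of any other member. All neighbours further down the order overlapped, so their ranks were not separated by the spread.

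**Figure D2:**
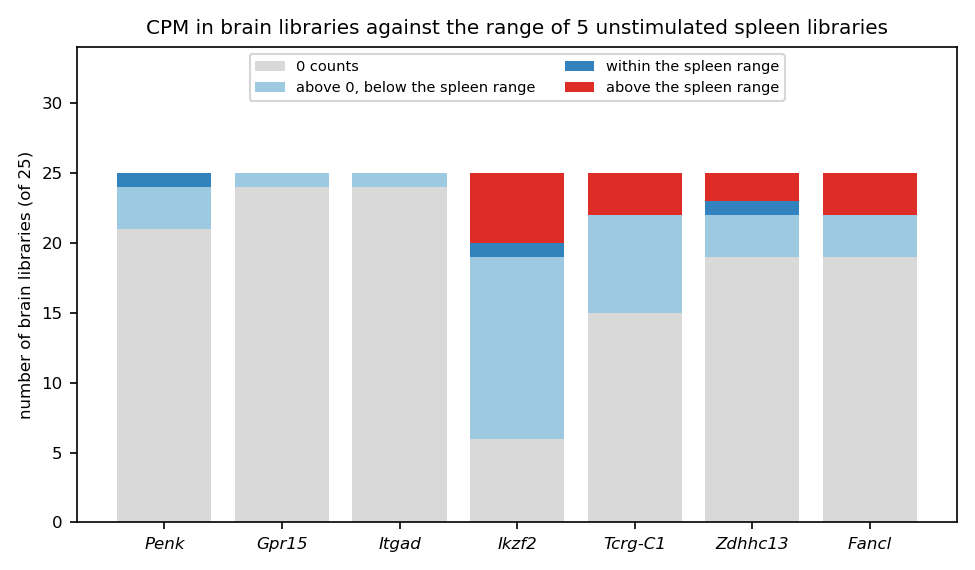
Number of the 25 brain libraries (vertical axis) whose CPM of each gene (horizontal axis) was 0, above 0 but below the range of the 5 unstimulated spleen libraries, within it or above it. Gpr15 and Itgad were at 0 in 24 libraries, while Ikzf2 was at 0 in 6 and above the spleen range in 5. Of the 25 libraries, 6 are the unstimulated aged male ones whose low counts chose the genes.

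The counts above define 2 patterns among brain libraries. Penk, Gpr15 and Itgad never exceeded unstimulated spleen. Ikzf2, Tcrg-C1, Zdhhc13 and Fancl exceeded it in 5, 3, 2 and 3 brain libraries, and were mostly at 0 or below the spleen range in the rest. The brain libraries with 4 or more members detected were unstimulated female replicates 13 (6 members) and 17 (4 members) and young male replicate 3 (4 members). In the young library Tcrg-C1 and Fancl had a single count each. All 7 genes had counts in all 5 unstimulated spleen libraries and in 4 of 5 stimulated spleen libraries, the exception being replicate 39, which lacked Gpr15 and Tcrg-C1.

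Many genes were at 0 in libraries with few genes detected, so the members were set beside the 7753 spleen genes defined above. In stimulated male brain 6 of 7 members were at 0 in every library, against 36% of the 7753 genes. In stimulated female brain 4 of 7 were, against 13.4%. In unstimulated young male brain 2 of 7 were, against 0.916%, and in unstimulated female brain 1 of 7 was, against 0.632%. In unstimulated aged male brain, whose zeros chose the genes, 3 of 7 were, against 0.658%, from which nothing is read. The 7753 genes include all levels above their limit and were not matched to the members on level. The members averaged 5.11 to 34.5 CPM in unstimulated spleen, so the other shares do not separate absence from a low level.

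**Figure D3:**
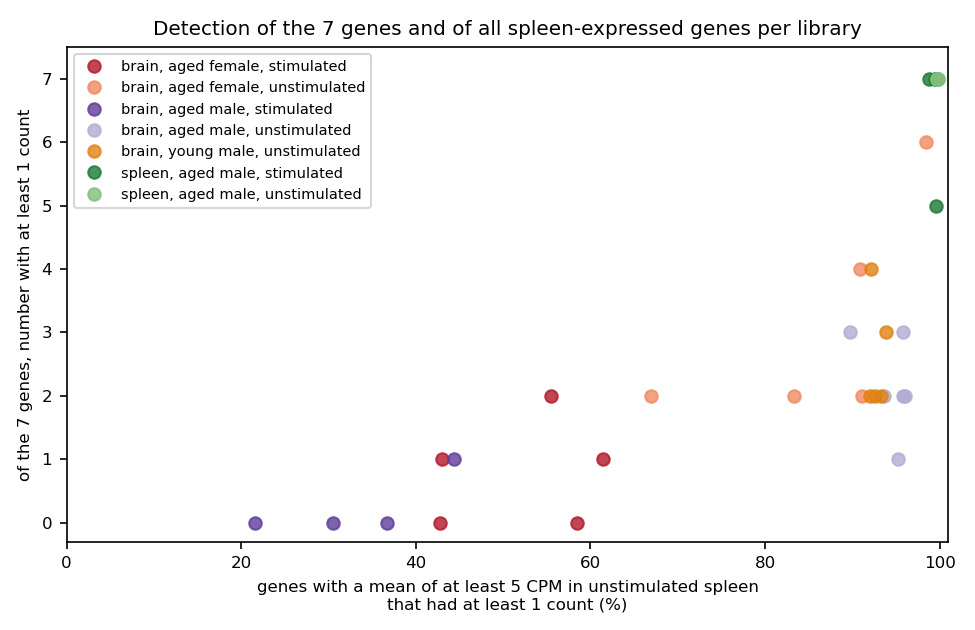
Number of the 7 genes with at least 1 count (vertical axis) against the percentage of 7753 spleen-expressed genes with at least 1 count (horizontal axis) in each of 35 libraries, coloured by group. Unstimulated aged male and young male brain libraries lie at 89.8 to 96.0% of spleen genes but 1 to 4 of the 7 genes; unstimulated female replicate 13 lies beside spleen with 6. Low counts in the unstimulated aged male libraries chose the 7 genes, and the spleen-expressed genes were not matched to them on level.

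The contrast that chose the genes, unstimulated brain against unstimulated spleen in aged males, is given without a test. With each brain library set to a limit of 3 counts, which allows for counting error alone, Penk was at least 195-fold, Itgad at least 85.2-fold and Gpr15 at least 70.0-fold lower in brain. Without spleen replicate 33 the limit for Itgad was 53.6-fold. Fitted log2 fold changes were -9.19 for Zdhhc13, -8.78 for Fancl, -6.06 for Tcrg-C1 and -3.77 for Ikzf2. In brain Zdhhc13, Fancl and Tcrg-C1 averaged 0.00626, 0.018 and 0.07 CPM, under the floor of 0.176 CPM. Their fitted values thus depend on a prior count and cannot be ranked against the bounds. Over all 11040 genes the fit called 7.37%, with 3.35% higher and 4.02% lower in brain.

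Stimulated brain against stimulated spleen in aged males used none of the libraries behind the choice. Penk, Itgad, Zdhhc13 and Fancl were lower in brain, with 0 counts in 4 of 4 brain libraries. With brain at the floor, Penk was at least 33.9-fold, Itgad at least 8.14-fold, Zdhhc13 at least 6.19-fold and Fancl at least 3.8-fold lower. Their adjusted p from edgeR's quasi-likelihood test were 0.000447, 0.000792, 0.000431 and 0.00328. With no brain counts, these 4 genes passed the filter on low counts through spleen alone, so a call among them could only be lower. The fold changes fitted to them depend on a prior count and are no bounds. With these 4 genes set at their bounds, the median log2 fold change of the 5 members tested was -2.63. Over all 9135 genes tested the median was -3.02. That median is of fitted values, with no gene set at a bound, so it is not a like measure to -2.63. Whether the members as a set were lower than the median gene is not read from these values. Ikzf2 averaged 7.48 ± 14.95 CPM over brain libraries (SD, n = 4), against 25.8 ± 10.7 CPM over spleen libraries (SD, n = 5), a log2 fold change of -1.55 ± 1.65 (SE) with an edgeR adjusted p of 0.503. That value rested on brain replicate 19, the one library of its group with Ikzf2 counts. Without it the log2 fold change was -10.47 and the edgeR adjusted p 0.000509, and over all 15 alternatives the adjusted p ran from 0.000509 to 0.618. The remaining brain libraries held no Ikzf2 counts, so it then passed the filter through spleen alone, and -10.47 depends on a prior count. Gpr15 and Tcrg-C1 had too few counts for the test, so 5 of the 7 members were tested. Gpr15 averaged 1.29 CPM in spleen, under the brain floor of 1.53 CPM, so no fold is given. Tcrg-C1 averaged 1.83 CPM in spleen, and without spleen replicate 37 its 0.794 CPM was under that floor too, while without brain replicate 19 the floor was 1.85 CPM.

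Of all 9135 genes tested, 46.7% were lower, 1.82% higher and 48.5% called in all, with a median log2 fold change of -3.02; since the low-count filter favoured members high in spleen, nothing is read from the members' count of 4 lower among 5. Marker levels differed widely in the same comparison. Cd8a was at 37.9 to 97.8 CPM in brain, against 98.8 to 255.1 CPM in spleen. B cell markers, 6 of 6 of which were lower, summed to 0 in every brain library, against 165 to 356 CPM in spleen. Of tested NK cell markers 3 of 4 were lower and of CD4 and regulatory T cell markers 4 of 6, with Cd4 and Foxp3 at 0 in all brain libraries. Their sums were 0 to 130.6 and 1.70 to 50.4 CPM in brain, against 262.7 to 328.8 and 86.1 to 146.0 CPM in spleen. Neuron, glia and choroid plexus markers summed to 90.6 to 1194 CPM in brain, against 45.5 to 70.8 CPM in spleen, with Gfap, Aqp4, Snap25, Syt1 and Drd2 at 0 in brain. The part of these markers in the members' difference was not tested.

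In unstimulated aged female brain against unstimulated aged male spleen, Gpr15 was lower, with 0 counts in 5 of 5 brain libraries and at least 55.3-fold less than in spleen, at an edgeR adjusted p of 0.0185. It passed the filter on low counts through the spleen libraries in which presence was required, so this p is no independent test. The call was lost when spleen replicate 30, 31, 32 or 34 was left out (0.0646 to 0.0717) and in a fit of all 35 libraries (0.116), and over 16 alternatives the adjusted p ran from 4.51e-13 to 0.116. Penk averaged 2.34 ± 2.23 CPM in brain and 34.5 ± 3.49 CPM in spleen (SD, n = 5 each). Its 5 brain libraries were all below its 5 spleen libraries, with a log2 fold change of -3.82 ± 1.28 (SE). Nothing is read from that separation, because presence was required in spleen and the share of all genes so separated was not counted. The edgeR adjusted p of Penk was 0.238, while DESeq2 gave 0.00886, and the 16 alternatives ran from 0.00886 to 0.531. Thus 1 of 7 members was called lower, where 1.1% of the 10632 genes tested were, with 0.931% called higher and 2.03% in either direction. Nothing is read from that share, because the spleen arm was part of the choice.

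The other 5 genes did not pass in this comparison. The log2 fold change of Itgad was -3.84 ± 1.85 (SE) and that of Tcrg-C1 -1.05 ± 1.85, with edgeR adjusted p of 0.52 and 0.94. Both rested on female replicate 13: without it Itgad was at -10.83 and Tcrg-C1 at -9.29, each with an edgeR adjusted p of 0.00681. The remaining brain libraries held no counts of either gene, so both then passed the filter on low counts through spleen alone. These fold changes depend on a prior count, and the p-values are no independent test. The lowest and highest adjusted p over the alternatives were 0.00681 and 0.868 for Itgad and 0.00681 and 1 for Tcrg-C1. Ikzf2 averaged 20.96 ± 22.1 CPM over brain libraries, against 31.2 ± 7.08 CPM over spleen libraries (SD, n = 5 each; edgeR adjusted p 0.923). Zdhhc13 averaged 24.3 ± 39.4 CPM over brain libraries, against 8.76 ± 3.20 CPM over spleen libraries (edgeR adjusted p 0.854), and its log2 fold change turned from 1.47 to -0.31 without female replicate 16. Fancl averaged 10.1 ± 13.96 CPM over brain libraries, against 8.58 ± 3.97 CPM over spleen libraries (edgeR adjusted p 0.987), and its log2 fold change of 0.29 turned to -0.27 without female replicate 13 and -0.53 without replicate 17. For these 3 genes the spread between brain libraries was larger than the difference. B cell markers, with 3 of 3 tested lower, summed to between 0 and 10.6 CPM in brain libraries, against 154 to 502 CPM in spleen libraries, and their part was not tested.

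In unstimulated young male brain against unstimulated aged male spleen, Penk and Itgad were lower. Both had 0 counts in 5 of 5 brain libraries, and were at least 148-fold (Penk) and at least 64.7-fold (Itgad) lower than in spleen; without spleen replicate 33 the limit for Itgad was 40.7-fold. Both passed the filter on low counts through the spleen libraries in which presence was required, so their p-values are no independent test. Their edgeR adjusted p were 0.00274 and 0.00432; over 16 alternatives Penk stayed between 4.9e-22 and 0.0233, while Itgad ran from 1.18e-12 to 0.0776 and missed the threshold in the fit of all 35 libraries. Gpr15 averaged 0.321 ± 0.717 CPM over brain libraries, against 12.4 ± 6.34 CPM over spleen libraries, with a log2 fold change of -5.21 ± 1.83 (SE). Its edgeR adjusted p was 0.113, and it was 0.00532 without young replicate 3, 0.00711 with DESeq2 and at most 0.221 under the other alternatives. Without young replicate 3, Gpr15 had no brain counts and passed the filter through the same spleen libraries. The 5 brain libraries of Gpr15 were all below the 5 spleen libraries. Presence was required in those spleen libraries, and the share of all genes so separated was not counted, so nothing is read from it. Age and tissue differ together here and cannot be told apart.

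Single libraries also decided the other calls in young male brain. Tcrg-C1 had a log2 fold change of 1.93 ± 1.92 (SE, edgeR adjusted p 0.671), but without replicate 5 it was -6.21 with an edgeR adjusted p of 0.00607. Fancl had -1.29 ± 1.73 (SE, 0.771), and -7.44 without replicate 6 (edgeR adjusted p 0.00438). Zdhhc13 had -3.29 ± 1.81 (SE, 0.375), and -9.98 without replicate 4 (edgeR adjusted p 0.00447). The highest edgeR or DESeq2 adjusted p over the alternatives were 0.831, 0.888 and 0.557 for Tcrg-C1, Fancl and Zdhhc13. In each case the remaining 4 brain libraries held 0 to 2 counts. The genes then passed the filter on low counts through the spleen libraries in which presence was required. The fold changes without these libraries depend on a prior count, and their p-values are no independent test. Ikzf2 averaged 35.96 ± 34.98 CPM over brain libraries, against 31.2 ± 7.08 CPM over spleen libraries (SD, n = 5 each; edgeR adjusted p 0.94), and its log2 fold change of 0.24 was -0.31 without replicate 4 and -0.43 with unscaled library totals. Of the 7 members 2 were called lower, where 6.11% of 10663 genes were, with 3.25% called higher and 9.36% in either direction, and nothing is read from that share. Here 3 of 6 tested red pulp macrophage markers and 2 of 4 tested B cell markers were also lower in brain; their summed levels were 0.215 to 61.7 and 10.7 to 159 CPM in brain, against 28.3 to 91.7 and 154 to 502 CPM in spleen, and their part was not tested.

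In aged male spleen, stimulated against unstimulated, the fit called Penk higher and Gpr15 lower. Presence was required in the unstimulated libraries and not in the stimulated ones, so the choice favours a fall and the p-values are no independent test of one. Penk rose, at 51.8 ± 13.5 CPM in stimulated and 34.5 ± 3.49 CPM in unstimulated cells (SD, n = 5 each), with a log2 fold change of 0.78 ± 0.19 (SE) and an edgeR adjusted p of 0.0124. Individual libraries overlapped slightly, as 1 stimulated library, at 37.2 CPM, lay within the unstimulated range of 30.8 to 38.5 CPM. The rise of Penk depended on scaling: with unscaled library totals it was 0.11 with an edgeR adjusted p of 0.651. That scaling moved the median of all genes to -0.73, against -0.07 with TMM, so Penk was above the median gene by either scale. Gpr15 fell, at 1.29 ± 1.41 CPM in stimulated and 12.4 ± 6.34 CPM in unstimulated cells, with a log2 fold change of -3.03 ± 0.78 (SE) and an edgeR adjusted p of 0.0162. The stimulated range of 0 to 3.51 CPM and the unstimulated range of 2.62 to 19.6 CPM overlapped by 1 library each. With unscaled totals Gpr15 was at -3.77 (edgeR adjusted p 0.00213). In the fit of all 35 libraries both calls were lost (adjusted p 1), and the lowest adjusted p over 16 alternatives was 0.00124 for Penk and 0.000389 for Gpr15.

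The other 5 members did not pass on stimulation. Their log2 fold changes (± SE) were -0.10 ± 0.49 for Itgad, -0.09 ± 0.29 for Ikzf2, -1.28 ± 0.89 for Tcrg-C1, 0.30 ± 0.34 for Zdhhc13 and -0.38 ± 0.49 for Fancl. The edgeR adjusted p were 0.914, 0.872, 0.355, 0.595 and 0.645. The sign of Itgad turned without unstimulated replicate 33 (0.55), and that of Zdhhc13 turned with unscaled totals (-0.35). Of the 7 members 1 was called higher and 1 lower, against 12.6% and 6.12% of 11107 genes, and 18.7% were called in all. With unscaled totals 523 genes were called higher and 4377 lower, against 1400 higher and 680 lower with TMM. Red pulp macrophage markers moved with Gpr15: 4 of 6 tested were lower, and their sum was 3.36 to 20.4 CPM in stimulated and 28.3 to 91.7 CPM in unstimulated spleen. Part of the B cell markers rose, as Penk did: 3 of 6 were higher, and the median log2 fold change of the list was 1.73. Their sum, most of it Ighm, did not rise. It was 165 to 356 CPM (median 294.8) in stimulated and 154 to 502 CPM (median 353.9) in unstimulated spleen. The part of these markers in the fall of Gpr15 and the rise of Penk was not tested.

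**Figure D4:**
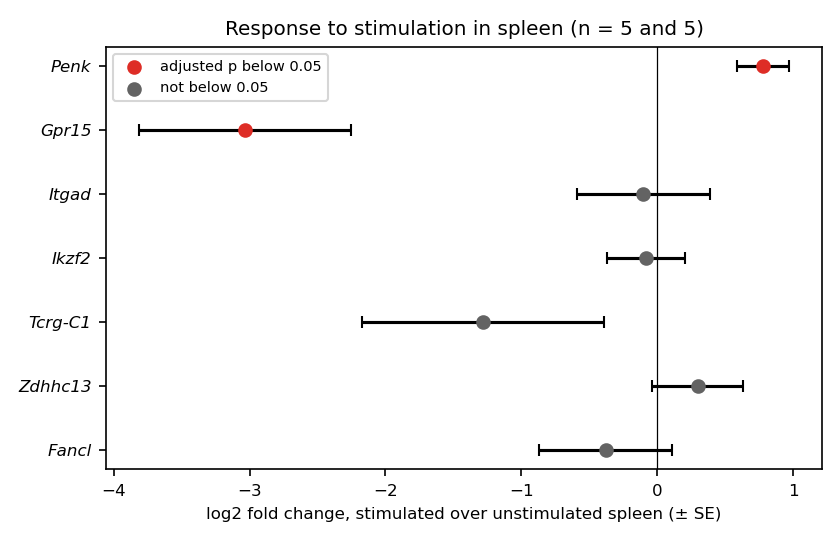
Log2 fold change of each gene in aged male spleen, stimulated over unstimulated cells (horizontal axis; n = 5 and 5), from edgeR with TMM scaling; bars are standard errors. Penk at 0.78 and Gpr15 at -3.03 pass an adjusted p of 0.05; presence in the unstimulated libraries was part of the choice of genes, and with unscaled library totals Penk does not.

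In aged female brain, stimulated against unstimulated, Ikzf2 alone had enough counts for the test. It was at 48.7 ± 107 CPM in stimulated and 20.96 ± 22.1 CPM in unstimulated cells (SD, n = 5 each), a log2 fold change of 1.61 ± 1.99 (SE) with an edgeR adjusted p of 0.786. Stimulated replicate 23, at 240 CPM, set that sign: without it the value was -4.45 (edgeR adjusted p 0.214). Zdhhc13 had counts in 0 of 5 stimulated and 4 of 5 unstimulated libraries and was at least 19.5-fold lower after stimulation, or 5.51-fold without unstimulated replicate 16. Fancl had counts in 0 of 5 and 2 of 5 libraries and was at least 8.12-fold lower, or 4.59-fold without unstimulated replicate 17. Without a filter on low counts Zdhhc13 was called (edgeR adjusted p 0.0423) and Fancl was not (0.0814). Both were at 0 in the 3 stimulated libraries titled with hyphens as well as in the other 2. Of all 6305 genes 6.09% were called, 1.92% higher and 4.17% lower. Stimulated libraries here held 42.7 to 61.4% of the spleen genes with a count, against 66.9 to 98.5% in unstimulated ones, and the part of that gap in the zeros was not tested.

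Age and sex comparisons among unstimulated brain libraries share the aged male libraries in which the genes were chosen as low, so a higher level in the opposite group is partly set by the choice and nothing is read from it. Ikzf2 averaged 2.22 ± 3.23 CPM in 6 aged male libraries and 35.96 ± 34.98 CPM in 5 young ones (SD), with a log2 fold change of -4.04 ± 1.58 (SE) and an edgeR adjusted p of 0.994. The groups overlapped, as 2 young libraries lay within the aged range of 0.108 to 8.63 CPM. No gene of 8068 passed by age with edgeR, a background of 0%, although 374 had an unadjusted p under 0.05, and DESeq2 called 72. By sex, Ikzf2 was at 20.96 ± 22.1 CPM in females (n = 5) and 2.22 ± 3.23 CPM in aged males, with a log2 fold change of 3.32 ± 1.44 (SE) and an edgeR adjusted p of 0.999. Of 8691 genes 0.15% passed by sex. The other 6 members failed the low-count filter in both comparisons.

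Relatives of the 7 genes mostly did not pass the test between unstimulated brain and spleen, and neither did most genes. Of all genes tested, 2.03% of 10632 passed in female brain and 9.36% of 10663 in young male brain. Nothing particular to the relatives is read from their counts. In unstimulated female brain against spleen, 0 of 8 other homing receptors, 0 of 7 other beta2 integrins and ligands, 0 of 4 Ikaros genes, 0 of 15 other zDHHC enzymes and 0 of 12 other Fanconi genes passed the edgeR test. Of 3 other gamma delta markers 1, Cd163l1, was lower. Itgb2, the chain that CD11d needs, averaged 611.9 CPM in female brain, against 705.2 CPM in spleen, in that fit (edgeR adjusted p 0.841), while Itgad had counts in 1 of 5 brain libraries. Ikzf3 was at 229.9 and 372.7 CPM in the same order (edgeR adjusted p 0.0955) and Ikzf1 at 139.7 and 193.6 CPM (0.662). In young male brain against spleen, 1 of 8 other homing receptors passed, the oxysterol receptor Gpr183, higher at 278.3 CPM in brain cells, against 62.3 CPM in spleen cells (log2 fold change 2.16, edgeR adjusted p 0.00432). None of the other beta2, Ikaros, zDHHC, Fanconi and gamma delta genes passed there (0 of 7, 3, 15, 12 and 3).

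In stimulated male brain against stimulated spleen several relatives were lower, in a comparison in which 46.7% of all genes were lower. Of other zDHHC enzymes 8 of 13 tested were lower, such as Zdhhc5 (log2 fold change -5.60, edgeR adjusted p 0.00842) and Zdhhc2 (-3.76, 0.0297). Of other Fanconi genes 3 of 8 were lower (Fancg, Fancd2 and Brca2), and of Ikaros genes 1 of 3 (Ikzf5). Of other beta2 integrins and ligands 2 of 6 were lower, Icam2 and Itgax, with Itgax at -5.03 (edgeR adjusted p 0.0144). All 3 tested gamma delta markers were lower, Blk as well as Tcrg-C2 and Tcrg-C4, the last pair with 0 counts in brain. Of 9 other homing receptors Ccr8 was lower and the skin homing receptor Ccr4 was higher, at 1.92 (edgeR adjusted p 0.0049). Over 15 alternatives Zdhhc2 passed in 10 (highest edgeR or DESeq2 adjusted p 0.0658) and Ccr4 in 14 (0.363).

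In spleen, some relatives of Gpr15 and Itgad passed on stimulation, where 12.6% of all genes were higher and 6.12% lower. Of 9 other homing receptors 3 fell and 1 rose: Cxcr3 fell by 1.37 and Cxcr6 fell by 1.14 on the log2 scale (edgeR adjusted p 0.000241 and 0.00721), Itgb7 also fell, and Gpr183 rose by 1.29 (0.0318), which unscaled totals reduced to 0.58 (0.157). Of the beta2 list the ligand gene Icam1 rose by 3.46 (edgeR adjusted p 5.71e-05), Vcam1, which is also on the red pulp macrophage list, fell by 3.44 (0.0115) and Icam2 fell by 1.28 (0.017). Zdhhc5 rose by 0.54 (edgeR adjusted p 0.0394), but with unscaled totals it was at -0.13. Over 16 alternatives Gpr183 and Zdhhc5 each passed in only 6. Vcam1 passed in 14, and Cxcr3, Cxcr6, Icam1 and Icam2 each in 15. None of 3 Ikaros, 14 Fanconi and 4 gamma delta genes passed. The peptide amidating enzyme Pam, the one opioid gene tested beside Penk, was at 7.56 CPM in stimulated and 15.4 CPM in unstimulated spleen in that fit (edgeR adjusted p 0.0819). In female brain Pam was lower after stimulation, at 0.889 CPM against 79.0 CPM (log2 fold change -6.42, edgeR adjusted p 0.0438). Itgb2 was lower too, at 55.8 CPM against 368.5 CPM (-2.72, 0.0398). Over 16 alternatives Pam passed in 6 (highest edgeR or DESeq2 adjusted p 0.101) and Itgb2 in 8 (0.11). Of all 6305 genes tested there, 4.17% were lower. Stimulated female brain libraries held 42.7 to 61.4% of the spleen genes with a count, against 66.9 to 98.5% in unstimulated ones. The part of that gap in both calls was not tested.

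Among 7261 genes compared over all 35 libraries by Pearson r of log2(CPM + 1), the genes most like each member were as follows, as a description in which libraries share tissue and depth. Klra13-ps (0.88) and the J chain gene Igj (0.87) were most like Penk. The iron exporter Slc40a1 (0.85) and Rmdn1 (0.82) were most like Gpr15, and Rpl22l1 and Rsph3a (both 0.93) were most like Itgad. The kinase gene Ripk3 (0.77) and Dcun1d2 (0.81) were most like Ikzf2. Likeness was lowest for Tcrg-C1, with Gpatch11 at 0.71 and Atrip at 0.68. Mcrs1 (0.83) and the adaptor gene Skap2 (0.82) were most like Zdhhc13, and Trmt13 (0.87) and Rps12-ps3 (0.86) were most like Fancl.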

How the data were processed

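RNA of sorted CD8 T cells was measured in 35 libraries, grouped by their labels; 1 marker of the sort is not reported here. Per the submitters' processing notes, Bowtie2 2.2.0, RSEM 1.2.12 and mm10 were used; the annotation, like the strand setting, is not given in the sources used here. Whole-number counts per gene come from the table deposited for the series, and they differed by at most 0.5 from the RSEM expected counts that the authors deposited per sample. Per the file headers, the authors' TPM and FPKM values are RSEM output; TPM served to compare levels between genes, and FPKM was not used. GENCODE M21 on GRCm38 gave positions and sequences, with 37607 gene identifiers matched.

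Counts were tested in R 4.3.3 with edgeR 4.0.16: filterByExpr with a minimum count of 10, TMM, robust quasi-likelihood fits of the 2 groups compared, two-sided, with Benjamini-Hochberg adjustment over all genes tested and a threshold of 0.05. CPM levels in the text use TMM over all 35 libraries, unless a fit is named. For groups without counts, folds were bounded by setting each library to 3 counts, a limit that allows for counting error alone. Each test was checked on simulated counts. No pair of libraries of a group was alike within counting noise. Alternatives were DESeq2 1.42.0 size factors and test, no filter, 1 fit of all libraries, no mitochondrial genes and each library left out; unscaled library totals were added as a test setting after seeing the data. Members and lists were chosen with earlier results of these data known. From each list the text takes up to 2 genes per direction, those past the threshold that changed most and averaged at least 5 CPM, or else up to 2 abundant genes; marker genes, the counts of Tcrg-C2, and list genes given only to name a short count were named after their values were seen. The 2 genes most like each member were the highest r among genes with a mean of at least 5 CPM in unstimulated spleen, leaving out predicted genes, small RNA and receptor segments. Python 3.11.15 with numpy 2.4.6, pandas 2.3.3 and matplotlib 3.10.9 made tables and figures.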

Additional observations from a re-analysis of the deposited data

Results flagged for a closer look

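Within groups, 1 library lay far from the rest in 16 of the 33 gene and group pairs with any count, by the gap to its nearest neighbour. For normally distributed values chance gives this in about 5% of groups, but that rate does not hold for sparse counts: beside libraries at 0, any count gives the full gap. Most were such brain libraries beside others at 0 CPM. They were Penk at 36.4 CPM in stimulated female brain replicate 26, Gpr15 at 1.60 CPM in young male brain replicate 3, and Itgad at 5.02 CPM and Tcrg-C1 at 11.9 CPM in unstimulated female brain replicate 13. Ikzf2 at 29.9 CPM in stimulated male brain replicate 19, Tcrg-C1 at 122 CPM in stimulated female brain replicate 24 and Zdhhc13 at 4.37 CPM in young male brain replicate 4 also stood beside others at 0. So did single counts in unstimulated aged male brain, Zdhhc13 at 0.0376 CPM in replicate 7 and Fancl at 0.108 CPM in replicate 8.

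Other libraries stood above neighbours that had some counts. Ikzf2 was at 240.0 CPM in stimulated female brain replicate 23, against 0 to 3.61 CPM in the others, and at 8.63 CPM in unstimulated aged male brain replicate 11, against 0.108 to 2.14 CPM. Tcrg-C1 was at 96.3 CPM in young male brain replicate 5, against at most 0.142 CPM, and Fancl at 16.8 CPM in young male brain replicate 6, against at most 0.0891 CPM. Zdhhc13 was at 93.8 CPM in unstimulated female brain replicate 16, against 0 to 17.3 CPM. In spleen, Itgad was at 37.3 CPM in unstimulated replicate 33, against 9.04 to 9.99 CPM, and Zdhhc13 was low, at 4.51 CPM, in stimulated replicate 37, against 9.67 to 11.8 CPM.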

How the results depend on the processing

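Counts of genes past the threshold moved by more than 1.5 times in several comparisons, and the causes were not tested. For female brain against spleen, 216 genes became 607 with the DESeq2 test, 98 without a filter and 22 in the fit of all 35 libraries; the members called, 1, became 2 with DESeq2 and 0 in that fit. For young brain against spleen, 998 genes became 1498 with DESeq2, 1533 without a filter and 39 in the fit of all libraries, where 1 member was called in place of 2. With unscaled totals 78 genes were higher and 713 lower there, against 347 and 651. For stimulation in spleen, 2080 genes became 53 in the fit of all libraries, with 0 members, and 4900 with unscaled totals, with 1 member. For stimulation in female brain, 384 genes became 878 with DESeq2, 704 without a filter and 2549 in the fit of all libraries, with 1 and 2 members in the last 2, against 0. Unscaled totals gave 49 higher and 487 lower there, against 121 and 263. By age, 0 genes became 72 with DESeq2, 25 without a filter and 1 in the fit of all libraries. By sex, 13 genes became 6 with DESeq2 size factors, 24 with DESeq2, 29 without a filter and 2 with unscaled totals; 1 member, Zdhhc13, was called without a filter and in the fit of all libraries, against 0.

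Leaving out each library gave 3482 to 5981 genes and 4 to 5 members for stimulated brain against spleen, 57 to 1069 and 0 to 3 for female brain against spleen, and 841 to 1959 and 2 to 3 for young brain against spleen. It gave 1554 to 2340 genes and 2 members for stimulation in spleen, 49 to 596 and 0 for stimulation in female brain, 0 to 1 and 0 by age, and 4 to 15 and 0 by sex. Signs turned in 7 results when a library was left out: log2 fold changes ran from -0.53 to 0.61 for Fancl and -0.31 to 1.78 for Zdhhc13 in female brain against spleen, and from -0.31 to 0.57 for Ikzf2 and -6.21 to 2.26 for Tcrg-C1 in young brain against spleen. They ran from -0.29 to 0.11 for Ikzf2 and -0.34 to 0.55 for Itgad on stimulation in spleen, and from -4.45 to 2.42 for Ikzf2 on stimulation in female brain. Unscaled totals turned Ikzf2 in young brain (-0.43) and Zdhhc13 (-0.35) and Zdhhc5 (-0.13) on stimulation in spleen. Unscaled totals moved the median over all genes, on the log2 scale, from -3.02 to -3.65 for stimulated brain against spleen, -0.06 to -0.21 for female brain, 0.35 to -0.31 for young brain, -0.41 to -1.81 for stimulation in female brain, -0.08 to 0.04 by age and -0.28 to 0.04 by sex. No paired analysis was possible because the groups compared share no replicate number. Depth and detection in stimulated brain, with totals from 1.16 M counts, limit what a count of 0 shows there.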
